A study of Solanum lycopersicum with 2 samples.

Results

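Jasmonates are lipid-derived hormones that plants make after wounding and in several stress responses. In the plastid, a lipoxygenase adds oxygen to linolenic acid, an allene oxide synthase turns the product into an unstable epoxide, and an allene oxide cyclase closes its ring to give oxophytodienoic acid. In the peroxisome, the reductase OPR3 acts on that intermediate before its side chain is shortened to jasmonic acid. The conjugate of jasmonic acid with isoleucine leads to the removal of JAZ repressors, which frees the basic helix-loop-helix factor MYC2 to act on jasmonate-responsive genes. The transcripts of 7 genes of this route were followed in tomato (Solanum lycopersicum) leaves: 6 enzyme genes and MYC2.

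The 7 genes were taken from a list of identifiers paired with names, and all 7 were listed in both libraries, among 24915 gene models listed in at least 1. They were the lipoxygenases LOXD (Solyc03g122340.2) and LOXC (Solyc01g006540.2), allene oxide synthase (AOS) genes on chromosome 4 (Solyc04g079730.1) and chromosome 11 (Solyc11g069800.1), the allene oxide cyclase AOC (Solyc02g085730.2), OPR3 (Solyc07g007870.2) and MYC2 (Solyc08g076930.1). The files pair no identifier with a name. RefSeq holds a gene of the matching symbol on the chromosome that the identifier gives for 7 of 7 members, which checks the chromosome and not the gene itself.

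The study compared 2 libraries from young leaves of 8-week-old plants of cultivar Moneymaker, grown in a glasshouse. The control library came from control leaves. The heat-stress library came from plants moved to a growth chamber, kept at 39°C for 1 h under 120 μmol m-2 s-1 of light and then left at 24°C for 1.5 h. The labels do not give a chamber transfer for the controls, a sampling time of day or the number of plants pooled, so heat, transfer and any difference in sampling time cannot be told apart.

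Libraries were prepared by MACE (massive analysis of cDNA ends), which reads the 3' end of poly-A RNA, with 1 read standing for 1 transcript. Levels are given as RPM, the reads of a gene model per 1000000 mapped reads, and can be compared between genes without a length term. The control library had 11534512 mapped reads and the heat-stress library 13857252. With 1 library per group there was no test between conditions. Intervals in brackets are 95% exact intervals that cover counting error only, not the spread between plants. In whole leaves, fewer cells of a type and less RNA per cell cannot be told apart. Leaf marker genes were not checked, because no identifier could be tied to a description.

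Transcripts of the plastid enzymes that could be measured well were lower after heat stress. Those of OPR3 were not, and no difference in MYC2 could be detected. AOC, the most abundant member, was at less than 50% of its control level after heat stress, and the chromosome 11 AOS, LOXD and LOXC were lower by smaller ratios. OPR3 and MYC2 were each slightly higher per mapped read, OPR3 beyond counting error on that scale but not after scaling to the median ratio of all models. Of the 6 members with a mean of at least 5 RPM over both libraries, AOC alone was lower by 2-fold or more, so 1 was called lower and 0 were called higher. Among all 11271 models past that filter, the share called lower by this rule was 1.66% and the share called higher 3.91%. At a threshold of 1.5-fold, 2 members were lower, AOC and the chromosome 11 AOS, beside 6.36% of all models. The chromosome 4 AOS did not reach the filter.

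**Figure D1:**
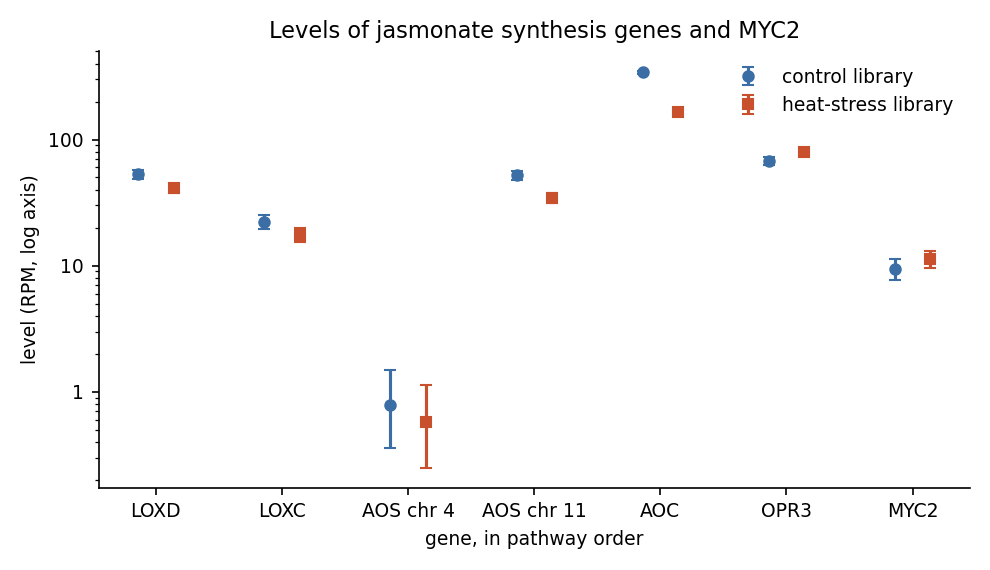
Level of each gene in RPM (log axis) in control leaves (circles) and the heat-stress library (squares), with 95% exact Poisson intervals for counting error, 1 library per group. AOC is highest in both libraries, at 341 and 164 RPM, and the chromosome 4 AOS is lowest, under 1 RPM in both.

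The lipoxygenases begin the route. LOXD, which is known in tomato as a wound-induced lipoxygenase of jasmonate synthesis, had 611.5 reads and 53.01 RPM in control leaves (48.9 to 57.4) and 567.5 reads and 40.95 RPM after heat stress (37.7 to 44.5). Its heat-stress to control ratio was 0.772 (0.688 to 0.867). LOXC, better known in tomato for making short-chain volatiles than for jasmonate, had 22.1 RPM in control leaves (19.5 to 25.0) and 17.4 RPM after heat stress (15.3 to 19.7), a ratio of 0.787 (0.657 to 0.942). The intervals of the levels did not overlap between libraries for LOXD and overlapped narrowly for LOXC. LOXD held 70.6% of the reads of the lipoxygenase pair in control leaves (67.4 to 73.6) and 70.2% after heat stress (66.9 to 73.3). No change in the ratio of LOXD to LOXC could be detected, at 0.982 (0.792 to 1.22). Both genes had fractional reads in both libraries, meaning that some reads were divided with other locations.

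The AOS genes differed widely in level. The chromosome 11 gene had 601 reads and 52.1 RPM in control leaves (48.02 to 56.4) and 476 reads and 34.4 RPM after heat stress (31.3 to 37.6). Its ratio was 0.659 (0.583 to 0.745), the second lowest of the members past the filter, and the intervals of its levels lay well apart. The chromosome 4 gene had 9 reads in control leaves, or 0.780 RPM (0.357 to 1.48), and 8 reads after heat stress, or 0.577 RPM (0.249 to 1.14). Its ratio of 0.740 had an interval from 0.248 to 2.16, so neither a 2-fold difference in either direction nor its absence could be shown at this depth. The chromosome 11 gene supplied 98.5% of the reads of this AOS pair in control leaves (97.2 to 99.3) and 98.3% after heat stress (96.8 to 99.3).

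AOC, the enzyme that fixes the ring and its stereochemistry, had the most reads of the set. It had 3930 reads and 341 RPM in control leaves (330.1 to 352) and 2270 reads and 164 RPM after heat stress (157 to 171). It ranked 253 by level among the models of the control library and 669 after heat stress. The ratio was 0.481 (0.456 to 0.506), with a log2 ratio of -1.05 after adding 1 RPM to both levels. The interval of the ratio holds 0.5, so the 2-fold call itself lies within counting error, while a lower level does not. With the whole interval required to lie past 2-fold, 0 members were lower, beside 0.976% of all models. Only 1.38% of the 11271 models had a lower log2 ratio. Among the 1228 models averaging 100 RPM or more over both libraries, the median log2 ratio was -0.02 and 3.42% were at least 2-fold lower.

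OPR3, the peroxisomal reductase, was the one enzyme with more RPM after heat stress. It had 782 reads and 67.8 RPM in control leaves (63.1 to 72.7) and 1107 reads and 79.9 RPM after heat stress (75.2 to 84.7), a ratio of 1.18 (1.07 to 1.29). MYC2 was the lowest-expressed member past the filter, at 108 reads and 9.36 RPM in control leaves (7.68 to 11.3) and 156 reads and 11.3 RPM after heat stress (9.56 to 13.2). The ratio of MYC2 was 1.20, and its interval of 0.935 to 1.55 holds 1. A difference in MYC2 was therefore not detectable at this depth.

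**Figure D2:**
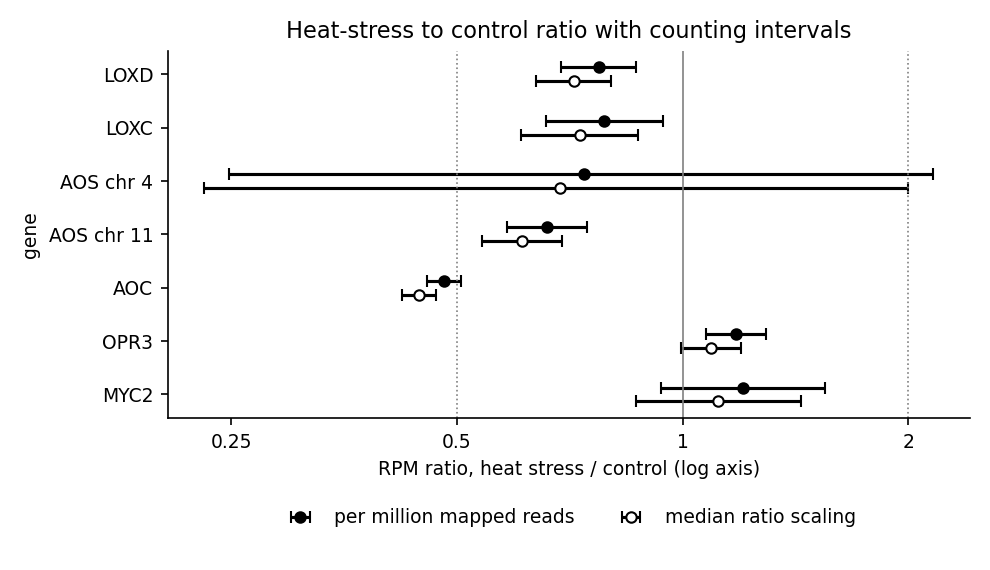
Ratio of heat-stress to control RPM (log axis) for each gene, with 95% conditional exact binomial intervals, per mapped read (filled) and after the heat-stress values were divided by the median ratio of all models (open); the solid line marks 1 and the dotted lines 0.5 and 2. LOXD, LOXC, the chromosome 11 AOS and AOC lie below 1 under both scalings, and the interval of OPR3 lies above 1 per mapped read and holds 1 after the median scaling.

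The median log2 ratio over all models past the filter was 0.10, so most of these gene models were higher per mapped read after heat stress, many only slightly. Scaling to a median ratio of 1 divided the heat-stress values by 1.08, a shift of 0.11 on the log2 scale. Relative to that shift AOC had a ratio of 0.445 (0.423 to 0.469), an interval wholly below 0.5, the chromosome 11 AOS 0.611 (0.540 to 0.690), LOXD 0.716 (0.637 to 0.804) and LOXC 0.729 (0.609 to 0.872). OPR3 then had a ratio of 1.09 (0.995 to 1.20) and MYC2 1.11 (0.866 to 1.44), and both intervals hold 1. The 1228 models averaging 100 RPM or more, AOC among them, had a median log2 ratio of -0.02 per mapped read. The shift was therefore not seen in the median of that group. AOC itself averaged 252 RPM, and no median was computed for models nearer its level. The unscaled interval of AOC, 0.456 to 0.506, holds 0.5. Relative to the reads inside gene models, OPR3 had a ratio of 1.20 (1.09 to 1.32). Per mapped read, 4 members past the filter had an interval wholly below 1 and 1 had an interval wholly above 1, beside 20.8% and 36.0% of all models. With the median scaling the numbers were 4 and 0, beside 27.9% and 26.5% of all models. The median log2 ratio of the 6 members past the filter was -0.35, beside the 0.10 of all models.

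**Figure D3:**
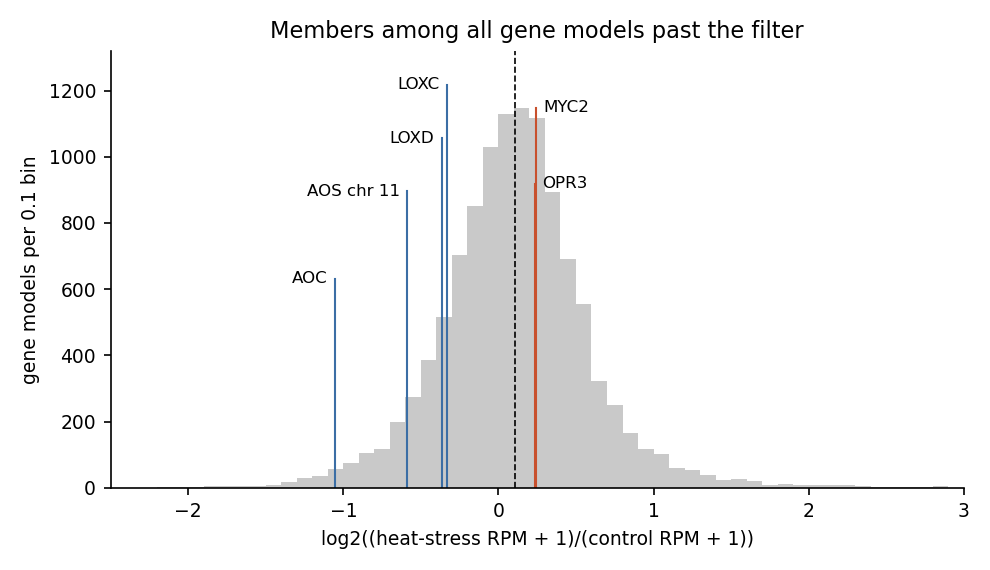
Number of gene models per bin of log2 ratio (heat stress against control, 1 RPM added) among the 11271 models past the filter, with the 6 members past it as vertical lines and the median of all models as a dashed line; 32 models lie outside the plotted axis. AOC lies at -1.05 in the lower tail, while OPR3 and MYC2 lie at 0.23 and 0.24, close to the centre.

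Ratios between members within a library do not depend on how the libraries are scaled. There were 5.03 AOC reads for each OPR3 read in control leaves and 2.05 after heat stress, a 2.45-fold shift toward OPR3 (2.20 to 2.73). The shift toward OPR3 was 1.79-fold for the chromosome 11 AOS (1.53 to 2.09), 1.53-fold for LOXD (1.31 to 1.77) and 1.50-fold for LOXC (1.22 to 1.84). AOC was also lower relative to the enzymes before it: LOXD reads per AOC read went up 1.61-fold (1.41 to 1.82), and those of the chromosome 11 AOS 1.37-fold (1.20 to 1.57). The ratio of OPR3 to MYC2 was 7.24 in control leaves and 7.10 after heat stress, with an interval for the change from 0.747 to 1.28. Of the 15 pairs among the 6 members past the filter, 11 had an interval for this change that excludes 1. The other 4 were the 3 pairs among LOXD, LOXC and the chromosome 11 AOS, and the pair of OPR3 and MYC2. For LOXD against the chromosome 11 AOS the change was 1.17 (0.989 to 1.39), an interval that holds 1 narrowly. No such share was computed for pairs of other models. For the ratios of single models, intervals wholly below or above 1 were common, at 20.8% and 36.0% of all models. Against the control library the members thus lay in 3 tiers, with AOC lowest, LOXD, LOXC and the chromosome 11 AOS between, and OPR3 and MYC2 highest. These tiers were read from the values of these 2 libraries, and an interval that holds 1 does not show that members of a tier changed alike.

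Together the 6 enzyme genes had 537 RPM in control leaves (523 to 550.1) and 337 RPM after heat stress (327 to 347), a ratio of 0.628 (0.605 to 0.653). The AOC difference equalled 88.7% of that net difference, in which OPR3 went the other way. Without AOC the other 5 had 196 and 173 RPM, a ratio of 0.884 (0.835 to 0.937). There the higher OPR3 level, 67.8 and 79.9 RPM, offset part of the lower levels of the other genes. The make-up of the sum of all 6 enzymes also differed between the libraries. AOC supplied 63.5% of the enzyme reads in control leaves (62.3 to 64.7) and 48.6% after heat stress (47.2 to 50.1), and OPR3 supplied 12.6% (11.8 to 13.5) and 23.7% (22.5 to 25.0). LOXD went from 9.88% (9.16 to 10.7) to 12.2% (11.2 to 13.1) of the sum although its own level was lower, as AOC was lower by a larger ratio.

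**Figure D4:**
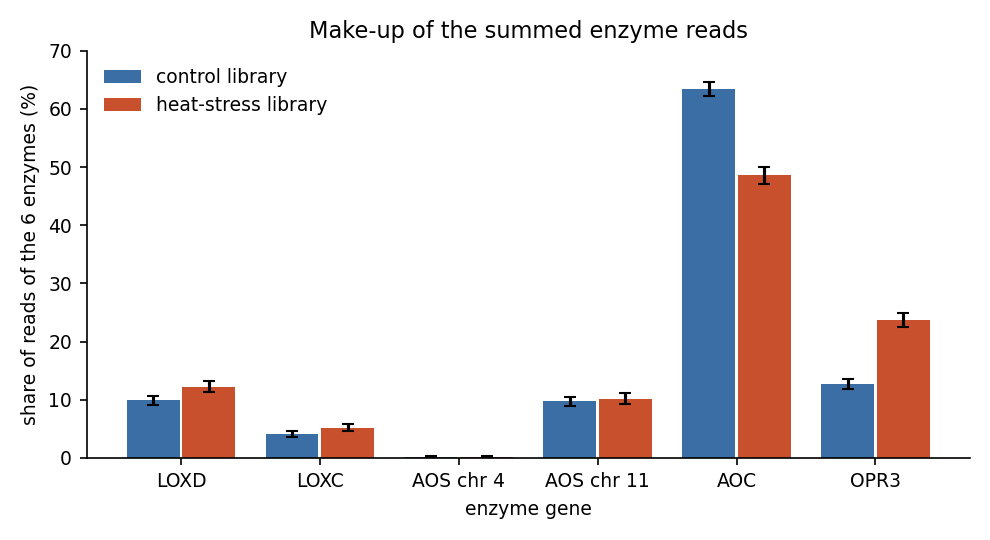
Share of the summed reads of the 6 enzyme genes held by each gene in the control and heat-stress libraries, in percent, with 95% exact binomial intervals for counting error. The share of AOC goes from 63.5% to 48.6% and that of OPR3 from 12.6% to 23.7%.

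The order of levels was the same in both libraries: AOC, OPR3, LOXD, the chromosome 11 AOS, LOXC, MYC2 and the chromosome 4 AOS. In the control library LOXD and the chromosome 11 AOS could not be separated, with a ratio of 1.02 (0.908 to 1.14). In the heat-stress library LOXD was 1.19 times the chromosome 11 AOS (1.05 to 1.35). Every other pair of neighbours in the order was apart beyond counting error in both libraries.

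The files also record how high the tallest read peak of each model was, which shows how far the 3' reads pile up at 1 place. The peak definition is not stated, so the shares below assume that peak height is a count of the model's own reads. For AOC the peak height was 932 in control leaves, or 23.7% of the reads of the model (22.4 to 25.1). After heat stress it was 488, or 21.5% (19.8 to 23.2). The chromosome 11 AOS had the most concentrated reads of the members past the filter, with 49.6% in its peak in control leaves (45.5 to 53.7) and 48.9% after heat stress (44.4 to 53.5). OPR3 had 20.5% and 21.05%, LOXD 24.7% and 26.4%, and LOXC 25.5% and 27.8%. The peak height of MYC2 was 35 beside 108 reads, or 32.4% (23.7 to 42.1), in control leaves. After heat stress it was 62 beside 156 reads, or 39.7% (32.01 to 47.9), and these intervals overlap. For comparison, 8945 models had 100 reads or more in both libraries and a peak no higher than their reads. Their median share was 25.4% in control leaves and 24.7% after heat stress. Taken alone, the peaks had ratios per mapped read of 0.436 for AOC and 1.21 for OPR3. These peaks were taken as part of the same reads, so they are no separate evidence, and no interval was computed for their ratios.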

How the data were processed

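The authors deposited 1 file per library. Per the file headers, each gene model has an estimated count of reads, fractional where a read was divided, the count of all mapped reads, a value headed TPM and the signal height of the highest peak. The deposited TPM equalled reads divided by mapped reads, per 1000000, within 3.42e-08 on every row, so it is RPM with no length term. FastQC is named by the submitters' processing notes. As for the aligner, build, annotation, strand setting and peak definition, these are not stated by the labels or headers, so antisense or overlapping models cannot be told apart.

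RPM ratios used a filter of 5 RPM (mean of both libraries) and log2 ratios a pseudocount of 1 RPM, over all models. Single RPM values have exact Poisson intervals, and ratios and shares have Clopper-Pearson intervals. Changes in the ratio of 2 members have conditional exact odds ratio intervals. All are at 95%, on reads rounded to whole numbers. Peak share intervals take the peak as a subset of the reads. Each read equals 0.0867 RPM (control) or 0.0722 RPM (heat stress). Calculations used Python 3.11.15, scipy 1.17.1 and pandas 2.3.3, and were tested on simulated data.

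All 7 members are named, whatever their values. Members and lists were chosen with earlier results of these data known. RefSeq (41476 genes) matched 0 identifiers, so other jasmonate genes and marker lists were not counted. Protein and promoter comparisons were not made, and no sequence is shown. The labels name no separate cultures or plants.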

Additional observations from a re-analysis of the deposited data

How the results depend on the processing

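With the median ratio scaling, the gene-model read scaling and peak heights in place of reads, 21 log2 ratios of members were recomputed. Of these, 0 changed sign and 19 moved by less than their counting interval. The 2 others were AOC at -1.16 with the median ratio scaling and at -1.18 with peak heights, against -1.05 as reported. The scalings shift log2 ratios by about 0.11 and 0.03, less than the size of any member's ratio, so they could not change a sign. Peak heights were taken as part of the same reads. With the median ratio scaling the interval of OPR3 went from wholly above 1 to holding 1. Pseudocounts of 0.1 and 5 RPM moved 14 further ratios by less than their counting interval and cannot change a sign. Filters do not alter a ratio, and the filter of 20 RPM removed LOXC and MYC2. The count of 1 member at least 2-fold lower became 2 with a 1.5-fold threshold, which the chromosome 11 AOS then passed beside AOC (6.36% of all models did), and 0 when the whole counting interval had to lie past 2-fold (0.976% of all models did). Members at least 2-fold higher numbered 0 under every setting tried for that count, including the 1.5-fold threshold, which 12.2% of all models passed. The log2 ratio of the summed enzymes was -0.67 as reported, -0.78 with the median ratio scaling, -0.69 without LOXC and -0.18 without AOC. Shares of the lipoxygenase and AOS pairs moved by under 0.5 percentage points with rounded reads. Peak heights, leaving out AOC and the interval rule were chosen after seeing the data. No paired analysis was possible because neither condition had a further library. Depth limits the chromosome 4 AOS most, with 9 and 8 reads, and then MYC2; the spread between replicates is unknown.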

Other observations

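The models next to AOC in identifier order on chromosome 2 were at far lower levels than AOC, and all lay on the same strand. The nearest on one side, Solyc02g085720.1, had 2 reads in control leaves and 1 after heat stress, and the nearest on the other, Solyc02g085740.2, had 13 and 10. Solyc02g085750.2, the next on that side, had 21 and 12 reads, a ratio of 0.476 with a wide interval (0.213 to 1.01). The only one of the 4 nearest listed models past 5 RPM was Solyc02g085710.2, with 30.3 RPM in control leaves and 31.2 RPM after heat stress, a ratio of 1.03 (0.892 to 1.19). Its interval holds 1 and lies wholly above that of AOC.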
